A study of Mus musculus with 2 samples.

Results

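The nuclear-encoded subunits of respiratory complexes II to V were followed in mouse skeletal muscle, in RNA labelled as null for Jhdm2a and in RNA labelled as wild-type. Jhdm2a, now named Kdm3a, encodes an enzyme that removes methyl groups from lysine 9 of histone H3. The genes were chosen by name alone, as Sdha, Sdhb, Sdhc, Sdhd, Cyc1 and every symbol that starts with Uqcr, Cox4, Cox5, Cox6, Cox7, Cox8 or Atp5, among probe sets with 1 gene symbol. The rule found 47 genes with 92 probe sets, of 18193 genes with 34945 such probe sets on the array. There were 4 genes of complex II, 9 of complex III, 17 of complex IV and 17 of complex V.

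Each genotype was measured on 1 Affymetrix Mouse Genome 430 2 array that carried skeletal muscle RNA pooled from 3 animals. The null animals and the wild-type animals were males aged 3 months, and both came from 129 embryonic stem cells with 4 generations of backcross onto C57BL/6. The muscle that was taken and the structure of the null allele are not stated in the labels. With 1 array per genotype there is no replicate check and no test between genotypes, and every difference below is a description of this pair of arrays, too few to give any precision beyond technical error.

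The inner mitochondrial membrane holds the respiratory chain. Complex II, succinate dehydrogenase, passes electrons from succinate to ubiquinone, complex III passes them from ubiquinol to cytochrome c, and complex IV, cytochrome oxidase, passes them on to oxygen. Complexes III and IV pump protons as they do so, and complex V, the ATP synthase, uses the proton gradient to make ATP. The catalytic core of cytochrome oxidase is encoded by mitochondrial DNA, and small nuclear-encoded subunits surround it. Of these, subunits 6a, 7a and 8 exist in mammals as a form of heart and skeletal muscle and as a form of most other tissues, also called the liver form.

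The values are MAS5 signals, a linear brightness per probe set, and each array had been scaled to the same level before deposit. A probe set was taken as measured when it lay above a floor of 182 on both arrays, the 60th percentile of all signals. Each gene was given the log2 ratio of null-labelled over wild-type-labelled signal, averaged over its measured probe sets, so that a positive value is higher in the null-labelled pool. Over 9696 measured genes the median log2 ratio was 0.04. The SD between probe sets of the same gene was 0.29 over 3719 genes, and the log2 ratios of 18 hybridisation controls averaged -0.02 ± 0.09 (SD). These are technical measures and hold no variation between mice. Values were also computed under 9 alternative settings of scaling, floor and probe set choice, called alternatives below. As a check of the tissue, 12 of 12 listed muscle genes read 6752 or more in the null-labelled pool and 7174 or more in the wild-type-labelled pool, while 4 of 4 cardiac markers were not above the floor on either. Kdm3a itself, through its 1 probe set, read 488 in the null-labelled pool and 406 in the wild-type-labelled pool, 1.20-fold higher. The labels do not say whether that probe set lies in the disrupted part, so the arrays and their RNA pools are called by their labels throughout.

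Of the 47 genes, 44 were measured, through 75 of the 92 probe sets. Nearly all had closely similar signals on both arrays, and 38 of the 44 had a log2 ratio within 0.2 of 0, against 48.5% of all measured genes. The measured genes include many dimmer ones, and this share was not computed for genes as bright as most subunits. At least 1.5-fold lower in the null-labelled pool were 2 of the 44, the cytochrome oxidase subunits Cox6a1 and Cox8a, both forms of most tissues rather than of muscle. Of all measured genes 6.27% were that much lower, so the count is near the background. With no floor Cox8a was no longer counted, since its dim probe set had the opposite sign. At least 1.5-fold higher were 0 of the 44 genes, against 3.35% of all measured genes. The median over the 44 genes was 0.05, and below 0 after quantile normalization (-0.0310) and loess (-0.0632). In bulk RNA, fewer cells of a type and less RNA per cell cannot be told apart. Most of these genes are bright, and 46 of their 92 probe sets lay above the 99th percentile of signals, 11230, on both arrays. Among the 714 genes with a mean signal of 4000 or more, 3.22% were at least 1.5-fold lower and 3.08% at least 1.5-fold higher. Whether signals near the top of the range compress the ratios was not tested.

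**Figure D1:**
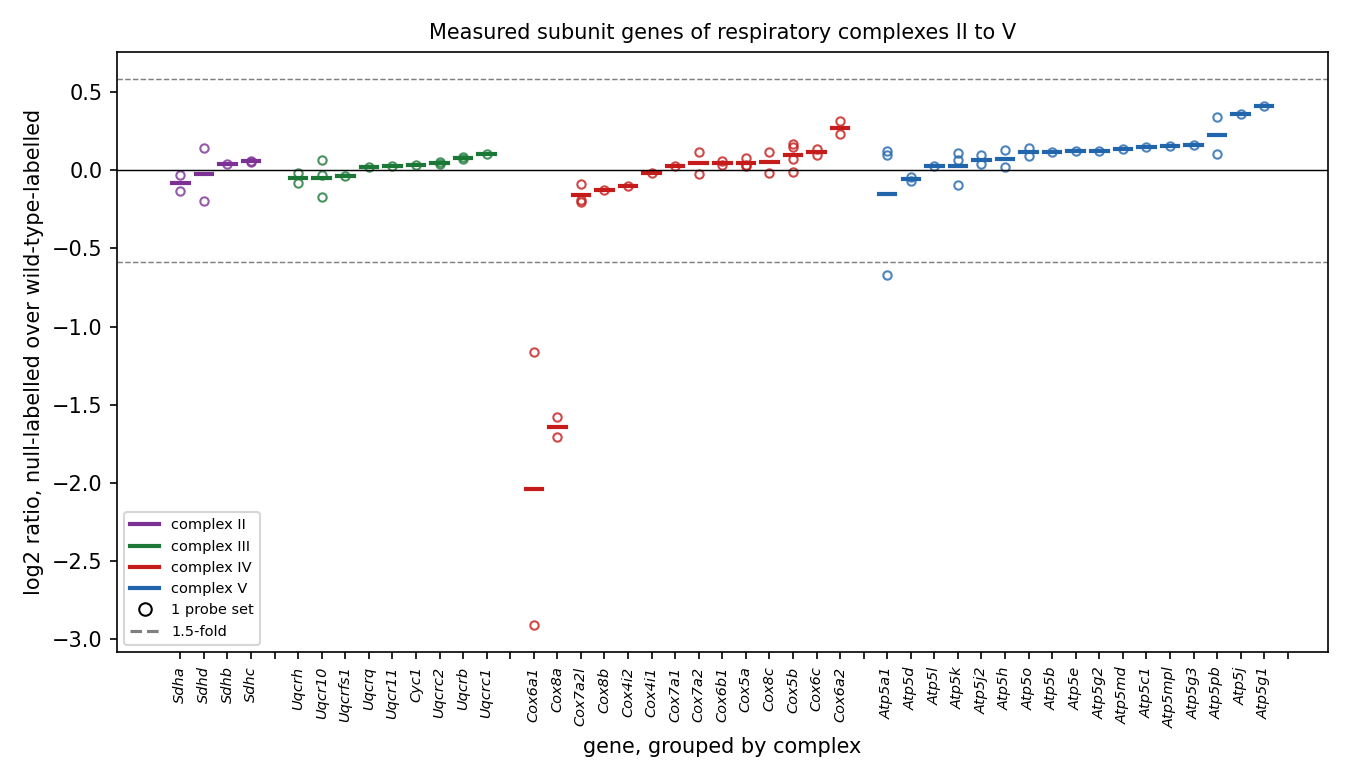
Log2 ratio of null-labelled over wild-type-labelled signal (vertical axis) for the 44 measured genes (horizontal axis), grouped by complex. Circles are probe sets, bars are gene means and dashed lines mark 1.5-fold. Cox6a1 at -2.04 and Cox8a at -1.64 are the 2 gene means beyond the dashed lines.

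Complex II showed no member past 1.5-fold, against 6.27% of all measured genes lower and 3.35% higher. Its 4 subunits had a median log2 ratio of 0.01. That median was -0.0348 with the median of all genes set to 0, -0.0409 after quantile normalization and -0.0979 after loess, so its sign is not settled. Sdha, the flavoprotein that oxidises succinate, read 12796 and 9291 in the null-labelled pool, against 13095 and 10169 in the wild-type-labelled pool, in its 2 measured probe sets. The log2 ratio was -0.08 ± 0.07 (SD, n = 2 probe sets). Its other 2 probe sets, at 57.1 and 6.2 in the null-labelled pool and 56.3 and 5.6 in the wild-type-labelled pool, were not above the floor. Sdhb, the iron-sulfur subunit, read 15458 in the null-labelled pool and 15049 in the wild-type-labelled pool (log2 ratio 0.04). The membrane anchors Sdhc and Sdhd had log2 ratios of 0.06 and -0.03. In Sdhd the 2 probe sets pointed in opposite directions, 7563 and 3748 in the null-labelled pool against 6860 and 4287 in the wild-type-labelled pool. Each of these differences lies below the probe set SD of 0.29.

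Complex III was as even, with all 9 subunits measured, 9 of 9 within 0.2 of 0 and a median log2 ratio of 0.03, which was below 0 in the same 3 alternatives, and -0.0818 after loess. Uqcrc1, a core subunit, was highest at 0.11, with 18751 in the null-labelled pool and 17412 in the wild-type-labelled pool. Uqcrb, a small subunit named for ubiquinone binding, had 0.08, with 24866 and 14282 in the null-labelled pool against 23491 and 13614 in the wild-type-labelled pool. At the other end stood Uqcrh, the hinge protein that contacts cytochrome c1, at -0.05, with 15092 and 12964 in the null-labelled pool against 15988 and 13133 in the wild-type-labelled pool. Uqcr10 also had -0.05 ± 0.12 (SD, n = 3 probe sets of both signs). The 2 nuclear-encoded subunits that carry electron-transferring groups, the Rieske protein Uqcrfs1 and cytochrome c1, Cyc1, had -0.04 and 0.04. Uqcrfs1 read 10454 in the null-labelled pool and 10729 in the wild-type-labelled pool, and Cyc1 read 14122 in the null-labelled pool and 13780 in the wild-type-labelled pool. The other 3, Uqcrc2, Uqcrq and Uqcr11, had 0.05, 0.02 and 0.03.

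Complex IV held both genes past 1.5-fold, 2 of 14 or 14.3%, against 6.27% of all measured genes at least that much lower. Its 14 measured genes had a median log2 ratio of 0.04, and 0.05 without Cox6a1 and Cox8a, with values from -2.04 to 0.27. The complex IV median was below 0 in 4 of 9 alternatives, among them quantile normalization at -0.0515 and loess at -0.0726. Among the subunits with 1 form in most tissues, Cox5a, on the matrix side of the enzyme, had 0.05, Cox5b, which binds zinc, had 0.09, Cox6b1, on the face toward cytochrome c, had 0.05, and Cox6c had 0.12. The brightest Cox6c probe set read 18952 in the null-labelled pool and 17750 in the wild-type-labelled pool. Cox4i1, the usual form of the largest nuclear-encoded subunit, read 17989 in the null-labelled pool and 18213 in the wild-type-labelled pool (log2 ratio -0.02), and its lung-enriched and oxygen-responsive form Cox4i2 read 291 in the null-labelled pool and 312 in the wild-type-labelled pool (log2 ratio -0.10). Cox7a2l, a relative of the 7a subunits that joins complexes III and IV into supercomplexes, had -0.16 ± 0.06 (SD, n = 3 probe sets), with each of the 3 lower in the null-labelled pool.

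The 3 isoform pairs of cytochrome oxidase did not behave alike. In the 6a pair the general form Cox6a1 read 7104 and 1720 in the null-labelled pool, against 15931 and 12890 in the wild-type-labelled pool. Both probe sets were lower in the null-labelled pool, by 2.24-fold and 7.50-fold, so the direction was shared and the size was not. The mean log2 ratio was -2.04 ± 1.23 (SD, n = 2 probe sets), 4.10-fold lower. The second probe set is of a class (suffix _s_at) whose probes match more than 1 transcript, and the first alone gives -1.17. The muscle form Cox6a2 read 18155 and 10809 in the null-labelled pool, against 15485 and 8678 in the wild-type-labelled pool. It was higher in the null-labelled pool in both probe sets, with a log2 ratio of 0.27 ± 0.06 (SD, n = 2 probe sets). The difference of the log2 ratios, Cox6a2 minus Cox6a1, was 2.31, and 1.39 with only the brighter probe set of each.

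In the pair of subunit 8 the general form Cox8a read 2485 and 2225 in the null-labelled pool, against 7426 and 7258 in the wild-type-labelled pool. These 2 probe sets were 2.99-fold and 3.26-fold lower, with a mean log2 ratio of -1.64 ± 0.09 (SD, n = 2 probe sets). The last Cox8a probe set, at 107 in the null-labelled pool and 83.8 in the wild-type-labelled pool, was not above the floor. The muscle form Cox8b read 18805 in the null-labelled pool and 20562 in the wild-type-labelled pool (log2 ratio -0.13). The difference Cox8b minus Cox8a was 1.51, and 0.85 when no floor was set and the dim probe set entered the mean.

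The pair of subunit 7a showed no such gap. The general form Cox7a2 read 21790 and 11201 in the null-labelled pool, against 20114 and 11407 in the wild-type-labelled pool, with a log2 ratio of 0.04 ± 0.10 (SD, n = 2 probe sets). The muscle form Cox7a1 read 13825 in the null-labelled pool and 13555 in the wild-type-labelled pool (log2 ratio 0.03). The difference Cox7a1 minus Cox7a2 was -0.02 and lay between -0.0870 and -0.0049 in the alternatives. Of the 3 general forms 2 were therefore lower in the null-labelled pool and 1 was not, while the 3 muscle forms lay between -0.13 and 0.27. Counted from the lowest log2 ratio, Cox6a1 was at rank 68 and Cox8a at rank 100 of 9696 measured genes, and at ranks 3 and 4 of the 714 bright ones.

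**Figure D2:**
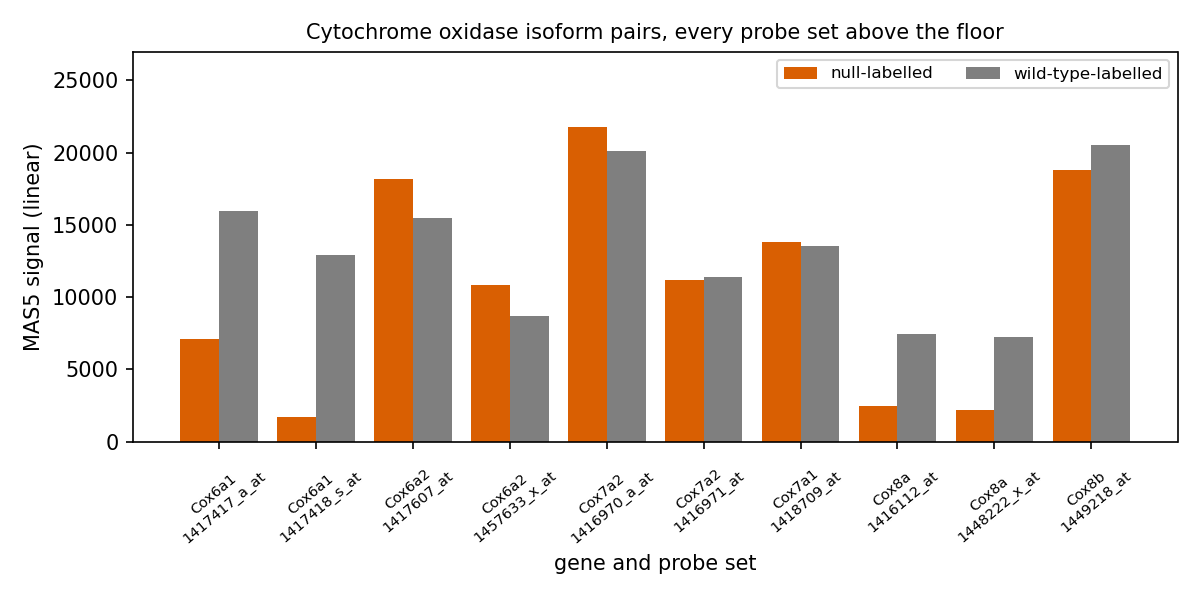
MAS5 signal on a linear axis from 0 for each probe set above the floor of the isoform pairs 6a, 7a and 8 of cytochrome oxidase, with the null-labelled array (orange, left) beside the wild-type-labelled array (grey, right). The Cox6a1 and Cox8a bars are lower in the null-labelled pool in 2 of 2 probe sets each, and bars of different probe sets are not comparable in height.

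**Figure D3:**
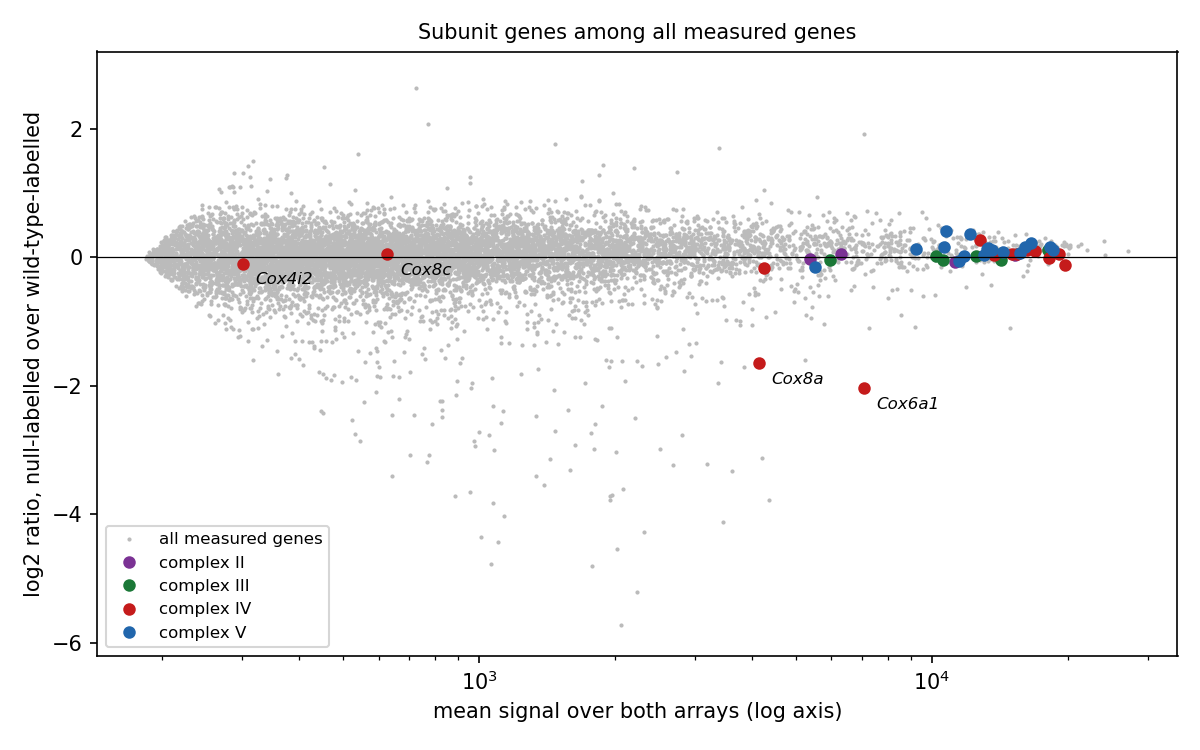
Log2 ratio of null-labelled over wild-type-labelled signal (vertical axis) against mean signal over both arrays (log axis) for 9696 measured genes in grey and the 44 subunit genes in colour. Most subunits lie at the bright end near 0, and Cox8a and Cox6a1 stand at -1.64 and -2.04.

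Most listed markers of fat and liver were lower along with Cox6a1 and Cox8a. The lists of other cell types were mixed. Of their genes above the floor on an array, 0 of 2 smooth muscle, 2 of 3 endothelial and 1 of 3 leukocyte genes were lower. Brown fat and liver express many of the subunits too, brown fat the muscle forms Cox7a1 and Cox8b as well, and liver the general forms of 6a, 7a and 8. Of all measured genes 44.3% had a mean log2 ratio below 0. That share is over genes above the floor on both arrays and uses the mean of their probe sets. The marker counts below use the brightest probe set, for which the share over all genes was not computed. Of 11 brown adipocyte markers on the array 10 were lower in the null-labelled pool in their brightest probe set. The summed signal of the 11 was 20843 in the null-labelled pool and 60125 in the wild-type-labelled pool. Most of the sum in the null-labelled pool was Fabp3, which muscle also makes, at 17506. Ucp1, the uncoupling protein of brown fat, read 283 in the null-labelled pool and 14885 in the wild-type-labelled pool. Of the 11 markers 4 were not above the floor in the null-labelled pool, against 0 in the wild-type-labelled pool. By the definition of the floor, 60% of all signals are not above it. The 10 adipocyte markers on the array, 9 of them lower in the brightest probe set, summed to 41309 in the null-labelled pool and 83026 in the wild-type-labelled pool. A large part of the sum in the null-labelled pool was Lpl, the 1 marker not lower. Its brightest probe set read 16439 in the null-labelled pool and 15835 in the wild-type-labelled pool. Adipoq, the hormone adiponectin, read 1145 in the null-labelled pool and 11443 in the wild-type-labelled pool. Of 13 hepatocyte markers on the array 5 were not above the floor on either. Above it on both were 2, Alb and Hp, each lower in the null-labelled pool. The rest passed the floor in the wild-type-labelled pool only, so their lower direction follows from that filter and adds no support. The 13 summed to 1676 in the null-labelled pool and 18222 in the wild-type-labelled pool. Not above the floor were 11 of the 13 in the null-labelled pool, against 5 in the wild-type-labelled pool. Alb, serum albumin, read 361 in the null-labelled pool and 2635 in the wild-type-labelled pool. No marker of these lists was listed at 0. The part of these tissues in the Cox6a1 and Cox8a values was not tested.

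**Figure D4:**
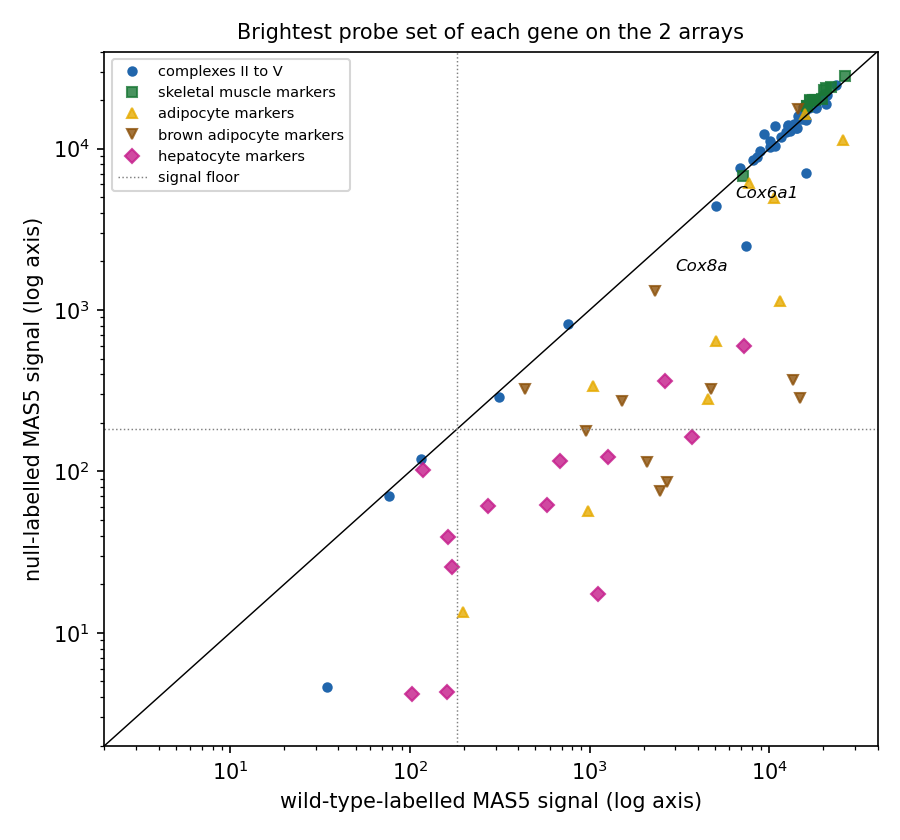
Brightest probe set per gene, with its signal in the null-labelled pool (vertical, log axis) against that in the wild-type-labelled pool (horizontal, log axis), for the 47 subunit genes and 4 marker lists, with a line of equal signal and dotted lines at the floor of 182. Muscle markers and most subunits lie on the line, Cox6a1 and Cox8a lie below it, and the fat and hepatocyte markers lie mostly far below it.

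The sequence around the start site was set beside these values, since it shows what the members that differed and other forms of the isoform pairs hold upstream. No promoter sequence was available for Cox6a2, the muscle partner of Cox6a1. The promoters of Cox6a1 and Cox8a are shown first, then that of the general form Cox7a2 and those of the muscle forms Cox7a1 and Cox8b. Each line holds 250 bases before and 50 after the annotated start from RefSeq on GRCm38.p6, written 5′ to 3′ on the gene's strand. Capitals mark every match, on either strand, to the motifs named after the sequences.
Cox6a1, chr5:115348909-115349208, minus strand: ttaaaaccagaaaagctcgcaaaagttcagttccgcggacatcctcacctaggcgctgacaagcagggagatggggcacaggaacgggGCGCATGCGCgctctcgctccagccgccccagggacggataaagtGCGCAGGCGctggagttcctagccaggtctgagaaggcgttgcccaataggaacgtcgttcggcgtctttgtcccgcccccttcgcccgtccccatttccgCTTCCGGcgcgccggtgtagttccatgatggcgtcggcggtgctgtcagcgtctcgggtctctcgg
Cox8a, chr19:7217567-7217866, minus strand: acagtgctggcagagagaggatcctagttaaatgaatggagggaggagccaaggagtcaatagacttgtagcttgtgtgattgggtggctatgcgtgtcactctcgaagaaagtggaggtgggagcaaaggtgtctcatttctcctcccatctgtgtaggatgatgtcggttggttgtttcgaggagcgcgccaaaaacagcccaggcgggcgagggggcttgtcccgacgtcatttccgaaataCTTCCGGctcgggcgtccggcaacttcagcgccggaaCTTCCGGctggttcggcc
Cox7a2, chr9:79759804-79760103, minus strand: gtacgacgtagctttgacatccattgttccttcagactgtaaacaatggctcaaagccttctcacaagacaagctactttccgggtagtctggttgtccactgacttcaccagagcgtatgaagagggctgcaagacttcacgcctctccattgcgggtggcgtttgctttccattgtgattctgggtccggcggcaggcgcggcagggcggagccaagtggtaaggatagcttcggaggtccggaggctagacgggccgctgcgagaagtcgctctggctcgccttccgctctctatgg
Cox7a1, chr7:30183921-30184220, plus strand: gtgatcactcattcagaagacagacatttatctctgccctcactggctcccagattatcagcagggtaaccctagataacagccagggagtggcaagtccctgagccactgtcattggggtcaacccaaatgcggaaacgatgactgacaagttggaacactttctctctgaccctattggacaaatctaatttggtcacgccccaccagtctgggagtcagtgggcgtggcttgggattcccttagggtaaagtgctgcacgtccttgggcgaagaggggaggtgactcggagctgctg
Cox8b, chr7:140900397-140900696, minus strand: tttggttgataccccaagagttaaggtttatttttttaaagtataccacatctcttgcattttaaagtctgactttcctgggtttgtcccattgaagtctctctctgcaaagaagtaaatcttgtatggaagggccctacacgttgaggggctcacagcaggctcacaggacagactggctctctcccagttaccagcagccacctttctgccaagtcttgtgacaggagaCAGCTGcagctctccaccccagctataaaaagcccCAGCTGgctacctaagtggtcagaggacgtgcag

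Capitals mark GCGCANGCG (NRF1), CCGGAAG (GABPA), TCAAGGTCA (ERR receptors), AAGATGGC (YY1), the MEF2 consensus and CAGCTG (an E-box of myogenic factors). NRF1 and GABPA are activators long known to control respiratory chain genes. Cox6a1 held NRF1 matches that begin 162, 161 and 117 bases before the start, the first 2 of them overlapping on opposite strands, and 1 GABPA match that begins 16 bases before it. Cox8a held 2 GABPA matches, 1 that begins 5 bases before the start and 1 that begins at base 33 of the transcript. Cox8b held 2 CAGCTG matches, and no match of these motifs lay in the windows of Cox7a2 and Cox7a1, which says only that these letters are not there. Of the 47 genes 35 had a promoter in the table, with 38 windows in all. The NRF1 motif was in 31.6% of these windows and in 6.25% of all 32851 promoters, and the GABPA motif in 34.2% and 8.86%. The YY1 motif was in 7.89% and 2.75%, the ERR motif in 5.26% and 0.42%, the MEF2 consensus in 0 of the 38 and in 0.557%, and CAGCTG in 5.26% and 16.3%. The shares of windows were not matched for GC content, so they do not separate these motifs from base composition. Genes that differed and genes that did not both held the commoner motifs. Of the measured subunits near 0, Sdhd had NRF1, GABPA and ERR matches and Atp5k had NRF1 and GABPA matches. A match is a description of letters and no evidence of binding in these animals.

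The forms made in other organs were dim or not measured. Cox8c, the testis form of subunit 8, read 824 and 496 in the null-labelled pool, against 758 and 502 in the wild-type-labelled pool (log2 ratio 0.05 ± 0.10, SD, n = 2 probe sets). The testis forms Cox6b2 and Cox7b2 were not above the floor, Cox6b2 at 70.3 in the null-labelled pool and 77.0 in the wild-type-labelled pool and Cox7b2 at 4.6 in the null-labelled pool and 34.6 in the wild-type-labelled pool. Cox7c, a subunit of all tissues rather than a form of other organs, was not above the floor in either of its 2 probe sets. The brighter read 119 in the null-labelled pool and 115 in the wild-type-labelled pool. Whether these probe sets report the Cox7c transcript was not tested, so its level in this muscle is not known here. No fold is given for these 3 genes.

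Complex V had mostly small positive ratios. All 17 genes were measured, 15 of 17, or 88.2%, had a log2 ratio above 0, and the median was 0.12, above 0 in 9 of 9 alternatives but only 0.02 after loess. Of all measured genes 55.7% were above 0, and of the 714 bright genes 73.1%. No gene of the complex reached 1.5-fold, where 3.22% of the 714 bright genes were at least that much lower and 3.08% higher. Atp5g1, 1 of the 3 genes that encode the same mature protein of the rotating c-ring, was highest at 0.41, with 12405 in the null-labelled pool and 9322 in the wild-type-labelled pool, 1.33-fold higher. The other 2 c-ring genes, Atp5g2 and Atp5g3, had 0.13 and 0.16, with 9654 in the null-labelled pool against 8847 in the wild-type-labelled pool and 16986 in the null-labelled pool against 15181 in the wild-type-labelled pool. Atp5j, coupling factor 6 of the peripheral stalk, had 0.36, with 13721 in the null-labelled pool and 10710 in the wild-type-labelled pool.

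The other stalk genes were closer to 0. Atp5pb, subunit b, had 0.22 ± 0.17 (SD, n = 2 probe sets), Atp5o, the oligomycin sensitivity protein, had 0.12, and Atp5h, subunit d, had 0.07. In the catalytic head, Atp5b, the beta subunit whose sites make ATP, read 19250 in the null-labelled pool and 17723 in the wild-type-labelled pool (log2 ratio 0.12). Atp5c1 and Atp5e, the gamma and epsilon subunits of the turning shaft, had 0.15 and 0.12, and Atp5d, the delta subunit, had -0.06, with 13381 and 9417 in the null-labelled pool against 14061 and 9698 in the wild-type-labelled pool. The alpha subunit Atp5a1 had the lowest mean, -0.15 ± 0.45 (SD, n = 3 probe sets), because its probe sets disagreed. The 2 bright ones read 16662 and 14998 in the null-labelled pool against 15578 and 13759 in the wild-type-labelled pool, and the dim one read 573 in the null-labelled pool and 911 in the wild-type-labelled pool. From the brightest probe set the log2 ratio of Atp5a1 was 0.10. The membrane subunits Atp5j2, Atp5k and Atp5l had 0.07, 0.03 and 0.03, and the small accessory proteins Atp5md and Atp5mpl had 0.14 and 0.16. With no floor, where probe sets below it enter the mean, Atp5c1 was at -0.34, Atp5g2 at -0.49 and Atp5j2 at -0.14, so the sign of these 3 rests on leaving dim probe sets out. After loess Atp5h, Atp5j2, Atp5k and Atp5l were below 0.

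The 714 bright genes had a median log2 ratio of 0.13, above that of all measured genes. Of the 25 genes of complexes II to IV that are themselves that bright, 24 lay below this median and 1, Cox6a2, above it, and their own median was 0.03. In complex V all 17 genes are that bright, and 10 lay below it and 7 above. The median of complex V exceeded that of complex III by 0.10, and by at least 0.0893 in 9 of 9 alternatives. The alternatives reuse the same pair of arrays, so their agreement is no replication. This gap is close to the SD of single hybridisation controls, 0.09. The complex V median lay above the median of the bright genes in only 1 of 9 alternatives. The 12 muscle markers had a median of 0.17, and of 0.0619 after loess. With 1 array per genotype no test of these gaps was possible, and bright genes share the scaling of their array.

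**Figure D5:**
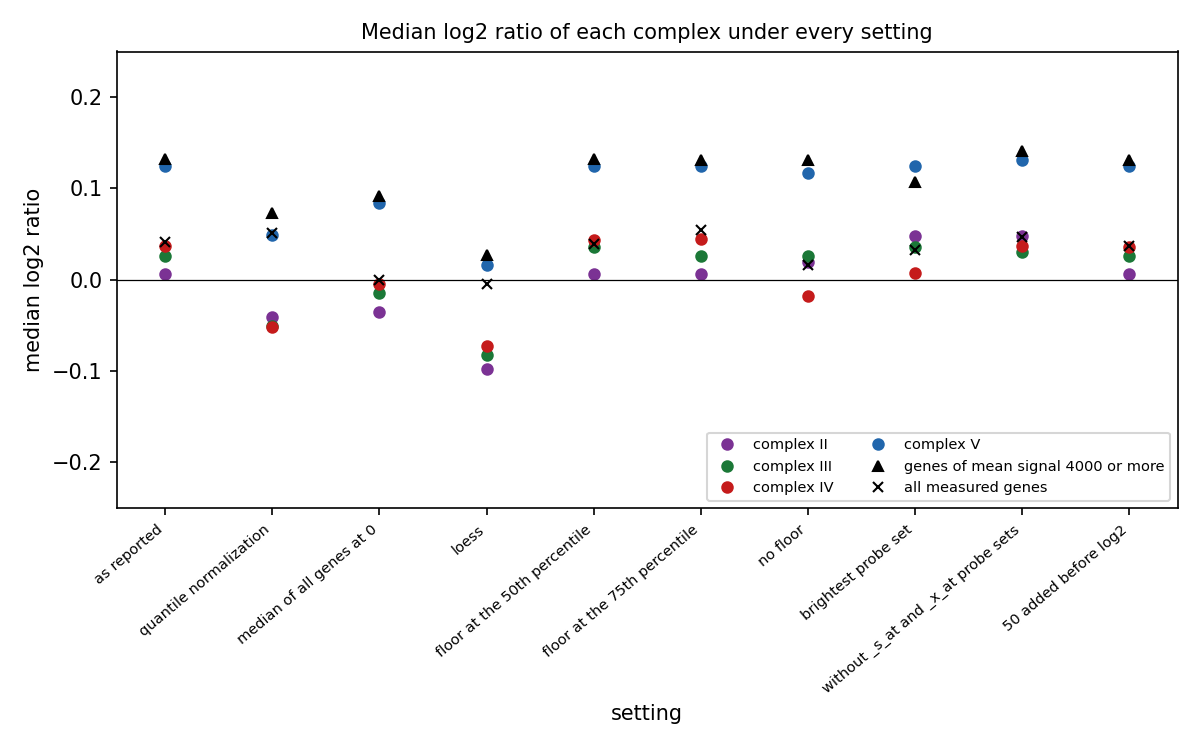
Median log2 ratio (vertical axis) of the genes of complexes II, III, IV and V as reported and under each alternative (horizontal axis), with the median of genes of mean signal 4000 or more (triangles) and of all measured genes (crosses). Complex V lies above the other 3 complexes under each setting, and complexes II to IV are below 0 after quantile normalization, median centring and loess, complex IV also with no floor.

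Genes that work with these complexes were read from a list of 50 assembly factors and electron carriers. Of these 43 were measured, with a median log2 ratio of 0.04 that was below 0 in 3 of 9 alternatives. At least 1.5-fold lower were 2 of 43, or 4.65%, against 6.27% of all measured genes, and at least 1.5-fold higher was 1, or 2.33%, against 3.35%. Sco2, a copper chaperone of cytochrome oxidase, read 232 in the null-labelled pool and 377 in the wild-type-labelled pool (log2 ratio -0.70), close to the floor. Coq6, a hydroxylase of ubiquinone synthesis, read 723 in the null-labelled pool and 1125 in the wild-type-labelled pool (log2 ratio -0.64). Atpaf1, a chaperone of the ATP synthase head, was higher at 0.60 ± 0.17 (SD, n = 2 probe sets), and its brighter probe set read 3150 in the null-labelled pool and 1906 in the wild-type-labelled pool. Cycs, the cytochrome c of body tissues, had 0.11 ± 0.08 (SD, n = 3 probe sets), with 26676 in the null-labelled pool and 26186 in the wild-type-labelled pool in the brightest.

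A complex I list, taken by gene name for comparison, had a median of 0.07 over 34 measured genes. At least 1.5-fold lower were 0 of them, against 6.27% of all measured genes, and at least 1.5-fold higher 0, against 3.35%. Among bright genes these shares were 3.22% and 3.08%. The median of the complex I list was below 0 after quantile normalization (-0.0034) and loess (-0.0326). The list includes Ndufa4, since assigned to cytochrome oxidase, and Ndufa4l2. Among the regulators, the coactivator Ppargc1a had 0.16 ± 0.12 (SD, n = 5 probe sets), the activators Nrf1, Gabpa and Tfam had 0.27, 0.14 and 0.37, and the receptor Esrra had -0.20. Nrf1 was close to the floor, at 221 in the null-labelled pool and 183 in the wild-type-labelled pool, with 1 of its 4 probe sets measured. Ppargc1b, a coactivator also abundant in brown fat, read 1308 in the null-labelled pool and 2301 in the wild-type-labelled pool (log2 ratio -0.82), and Ppara, a receptor of fatty acid metabolism, had -1.27 ± 0.16 (SD, n = 3 probe sets). Mef2a, a muscle transcription factor, had 0.82 ± 0.21 (SD, n = 4 probe sets). Of 18 measured regulators Ppargc1b and Ppara, or 11.1%, were at least 1.5-fold lower, against 6.27% of all measured genes, and Mef2a, or 5.56%, at least 1.5-fold higher, against 3.35%.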

How the data were processed

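The deposited table gives a linear MAS5 signal intensity for each probe set on each of 2 arrays. Per the submitters' processing notes the tool was MAS5, of unstated version. The 2% trimmed mean was 500.003 on both arrays, so the authors had scaled them before deposit, and no further scaling was applied. Groups came from the source label of each sample. Gene values exclude the 64 control probe sets. Names came from the platform annotation, in which 34945 probe sets had 1 symbol, 932 had several and 9160 were unnamed here. All 47 genes matched a RefSeq gene identifier (GRCm38.p6), and 0 were renamed. Promoters came from RefSeq.

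A gene counted as 1.5-fold different when its mean log2 ratio reached that size and its measured probe sets had 1 sign. Named are all 47 genes, Kdm3a, 7 regulators, assembly factors past 1.5-fold, Cycs and marker genes. Mef2a, ND5, Atpif1 and the complex I genes fall outside that rule and were named after values were seen. Members and lists were chosen with earlier results of these data known, and the set of bright genes was added after values were seen. No p-value was computed. The alternatives were 3 scalings (loess span 0.3), 3 floors, 2 choices of probe sets and an added constant of 50. The procedure was tested on simulated data with constant noise and effects planted only in genes well above the floor. Effects near the floor, unlike effects between probe sets of a gene and compression of high signals were not simulated. The 3′ over 5′ signal ratio of Gapdh controls was 0.828 in the null-labelled pool and 0.813 in the wild-type-labelled pool, and that of actin controls was 0.864 in the null-labelled pool and 0.999 in the wild-type-labelled pool. Python 3.11.15, pandas 2.3.3 and statsmodels 0.14.6 were used.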

Additional observations from a re-analysis of the deposited data

How the results depend on the processing

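Cox6a1 and Cox8a were the subunit genes at least 1.5-fold lower in 8 of 9 alternatives. With no floor Cox8a was not counted, because its 3 probe sets had both signs, and Cox7b2, whose 1 probe set is below the floor, was counted beside Cox6a1. None was at least 1.5-fold higher in the 9 alternatives, and Cox6a1 and Cox8a had a negative log2 ratio in 9 of 9. The log2 ratio turned sign in 17 of the 44 genes after loess, in 14 after quantile normalization, in 7 with the median of all genes at 0 and in 5 with no floor (Atp5c1, Atp5g2, Atp5j2, Sdha and Uqcrq). With the brightest probe set it turned in 5 (Atp5a1, Atp5k, Cox5b, Sdhd and Uqcr10). It turned in 1 with the floor at the 50th percentile (Atp5j2) and in 1 without _s_at and _x_at probe sets (Sdhd). Loess moved the median log2 ratio of all 44 genes to -0.0632, and those of complexes II, III, IV and V to -0.0979, -0.0818, -0.0726 and 0.0164. By construction loess takes out the trend of the ratio with brightness, and the median of bright genes then was 0.03. The Cox6a2 minus Cox6a1 difference was 1.39 with the brightest probe set of each gene and also without the _s_at and _x_at probe sets, both of which leave out the second Cox6a1 probe set. The Cox8b minus Cox8a difference was 0.85 with no floor, where the dimmest Cox8a probe set enters. The share of genes at least 1.5-fold lower was 3.22% among bright genes, an alternative added after values were seen. The median of assembly factors and carriers lay between -0.03 and 0.12. No scaling moved the median of all genes by over 0.1. No paired analysis was possible because each genotype has 1 array. Leaving out an array was not possible either, so the spread between mice is not known here, and 17 of the 92 probe sets gave no ratio because of the floor.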

Other observations

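The array carries 1 probe set with the symbol ND5, a complex I subunit encoded by mitochondrial DNA, which read 22931 in the null-labelled pool and 19830 in the wild-type-labelled pool (log2 ratio 0.21). Atpif1, the inhibitor that stops the ATP synthase from running backwards, falls outside the naming rule, and its 1 measured probe set read 1489 in the null-labelled pool and 1232 in the wild-type-labelled pool (log2 ratio 0.27). In the complex I list Ndufb1 was highest at 0.43 and Ndufb3 lowest at -0.18. Ndufa4, once counted with complex I and since assigned to cytochrome oxidase, had 0.24.

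Probe sets of a subunit gene gave log2 ratios with an SD of 0.26 over 24 genes, and 0.14 over the 23 genes other than Cox6a1. In the marker lists of cell types not described above, the 2 measured smooth muscle genes had log2 ratios of 1.02 for Myh11 and 0.36 for Acta2. Of the 3 endothelial genes Pecam1 and Cdh5 had 0.22 and -0.15, and Kdr was at least 1.5-fold lower, at 356 in the null-labelled pool and 712 in the wild-type-labelled pool, and the 3 leukocyte genes Ptprc, Cd68 and Lyz2 had 0.48, -0.18 and 0.07.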
